A study of Mus musculus with 6 samples.

Results

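Cadherins are membrane proteins that hold cells together through calcium-dependent contacts between their outer domains. Here they are the 61 genes, of 14549 in the deposited table, whose symbol is Cdh followed by a number or starts with Pcdh: 14 cadherins (Cdh), 11 single-locus protocadherins (Pcdh) and 36 protocadherins of the beta (14) and gamma (22) clusters. The annotation used (GENCODE M21) holds 92 protein-coding genes with such a name. Of these, 60 were in the table, together with Pcdhgb8, which is annotated as a polymorphic pseudogene; the others, among them the alpha cluster, were not analysed here. Polyadenylated RNA came from the dissected epicardium and subepicardium, the outer layers of the heart, of mouse embryos at E16.5. Control libraries (3, numbered 1, 2 and 4 in their titles) came from wild-type embryos, and dKO libraries (3, numbered 1, 2 and 3) from Meis1fl/fl;Meis2fl/fl embryos carrying WT1-Cre. In the dKO embryos both TALE homeobox genes are floxed, and recombination happens where WT1-Cre is or was active, so other cells of the dissected layers keep the genes. Each library was a pool of 2 hearts, so the spread between libraries is a spread between pools. The labels used here do not say whether wild-type controls had floxed alleles or Cre.

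Classical cadherins bind like to like across the cell border and are tied inside the cell to catenins and actin. Type I members (E-, N-, P- and R-cadherin) have the strongest adhesion and mark tissue layers: epithelia keep E-cadherin (Cdh1), while heart muscle cells join through N-cadherin (Cdh2) at the intercalated disc. Type II members are expressed in mesenchyme, endothelium and subsets of neural cells, and protocadherins form a larger group with weaker adhesion and other cytoplasmic partners. The epicardium is a mesothelium, an epithelium whose cells can leave the layer as mesenchymal cells, a step in which cadherins are often exchanged.

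Values are normalised read counts, in reads per 1e6 reads of a scaled library, in which 1 read stood for 0.0487 to 0.0740. Recovered totals were 14977143 to 15562385 reads in controls and 13146322 to 20635676 in dKO libraries. Changes are log2 of (value + 1), dKO minus control, from limma, with p-values adjusted over all 14549 genes and a threshold of 0.05; on this scale the change of a low gene is understated. As a check of the labels, Meis2 fell from 78.3 ± 13.0 to 41.3 ± 5.59 (SD, n = 3; exact two-sided permutation p = 0.1, the smallest that 3 against 3 allows). Meis1 was 77.8 ± 24.8 and 65.9 ± 7.82 (SD, n = 3; exact permutation p = 0.7); both values span all exons and do not measure a deleted part. Control 1 stood apart from the other controls in several members, as given beside them. Over all genes measured, 3205 genes (22.0%) passed the threshold, 12.2% lower and 9.81% higher in dKO libraries. The groups did not overlap for 40.4% of the genes.

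Of the 61 genes, 9 passed with lower and 6 with higher values in the dKO libraries, a share (24.6%) close to that of the table, with a median log2 change of 0.01 against 0.00 for all genes. The calls lay almost wholly outside the clusters: 14 of 25 cadherins and single-locus protocadherins passed (9 lower, 5 higher; 12.2% and 9.81% of all genes), and 1 of 36 clustered genes did. On the log2(value + 1) scale the 5 largest falls were those of Pcdh20, Cdh10, Pcdh15, Cdh8 and Cdh11. The order depends on the pseudocount: edgeR gave log2 changes of -6.33 for Cdh19, -4.07 for Cdh10, -3.82 for Pcdh20, -3.77 for Pcdh15, -3.40 for Cdh1 and -2.04 for Cdh11. On the first scale the 5 largest rises among genes past the threshold were those of Cdh20, Cdh2, Cdh16, Pcdh7 and Pcdhga12. Every gene in the table reached 1 in 3 libraries or more. Cdh1, Cdh10 and Cdh19 reached 1 in the 3 controls and in no dKO library, so they are in the table through the controls alone and had to differ; the counts of calls are descriptions for that reason. The groups did not overlap for 18 of the 61 genes (10 lower, 8 higher; 21.1% and 19.3% of all genes). edgeR called 8 members lower and 5 higher, against 20.3% of all genes (11.4% lower, 8.96% higher).

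**Figure D1:**
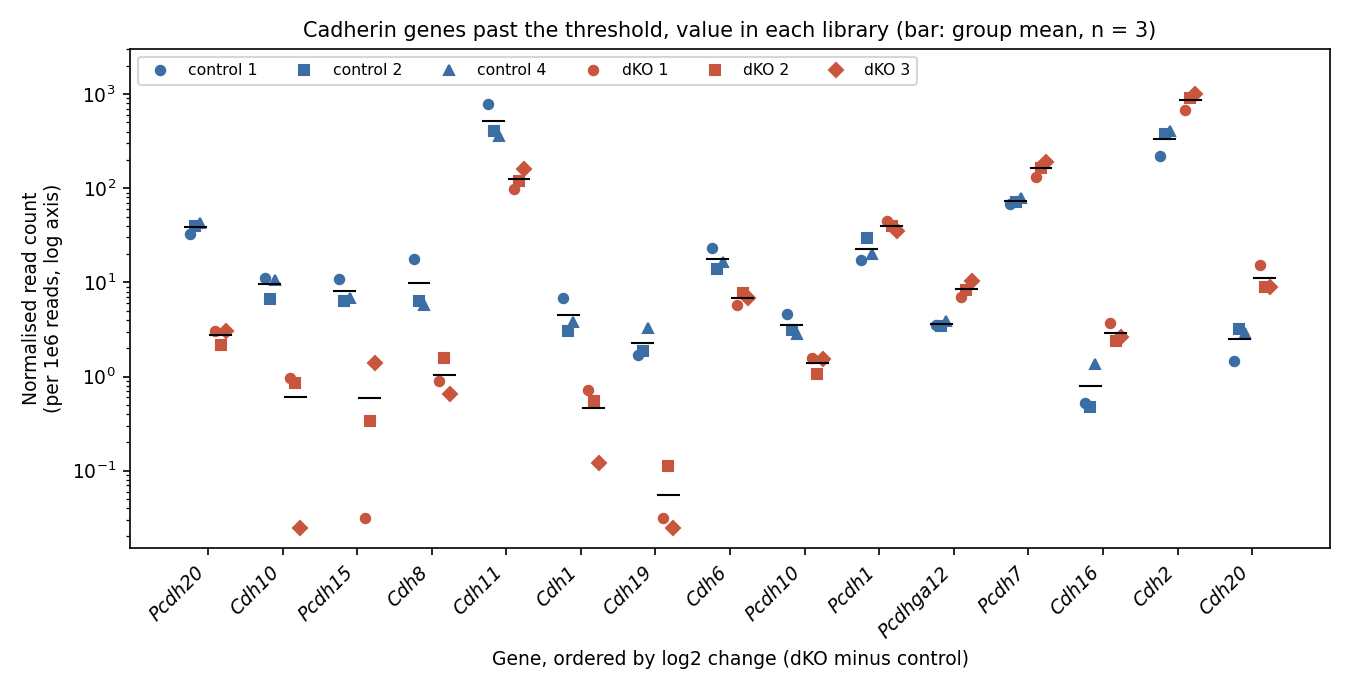
Normalised read count (log axis) of each of the 15 genes past the threshold, in 3 control (blue) and 3 dKO (red) libraries, with horizontal bars for the group means. Genes run from the largest fall (Pcdh20) to the largest rise (Cdh20) on the log2(value + 1) scale, and in each of them the control and dKO points do not overlap. For Cdh1, Cdh10 and Cdh19 this was fixed in advance.

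The upstream sequences of 3 of these genes are shown because they belong to changed genes: Pcdh20 had the largest fall on the log2(value + 1) scale and the smallest p of all members, and Cdh6 and Cdh20 were the members in which a script found the letters TGACAG, the core bound by MEIS proteins. Each line gives the 250 bases before the RefSeq start site (GRCm38.p6), 5′ to 3′ on the strand of the gene, with any match to TGACAG or to CACCTG, an E-box bound by SNAI and ZEB repressors, on either strand in capitals.
Pcdh20, chr14:88471397-88471646, minus strand: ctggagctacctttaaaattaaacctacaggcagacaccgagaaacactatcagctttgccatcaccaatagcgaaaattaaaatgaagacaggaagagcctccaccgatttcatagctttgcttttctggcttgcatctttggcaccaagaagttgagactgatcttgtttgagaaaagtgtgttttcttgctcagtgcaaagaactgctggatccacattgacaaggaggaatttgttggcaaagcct
Cdh6, chr15:13173676-13173925, minus strand: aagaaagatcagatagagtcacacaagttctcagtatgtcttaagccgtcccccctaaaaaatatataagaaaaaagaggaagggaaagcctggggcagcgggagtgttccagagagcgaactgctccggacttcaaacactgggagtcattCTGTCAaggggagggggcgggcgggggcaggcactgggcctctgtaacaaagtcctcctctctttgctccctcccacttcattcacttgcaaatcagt
Cdh20, chr1:104768270-104768519, plus strand: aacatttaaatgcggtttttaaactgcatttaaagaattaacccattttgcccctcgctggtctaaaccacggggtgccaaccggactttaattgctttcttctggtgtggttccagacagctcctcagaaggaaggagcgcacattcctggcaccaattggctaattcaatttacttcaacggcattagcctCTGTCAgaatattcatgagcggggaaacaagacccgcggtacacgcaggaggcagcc

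The match in Cdh6 begins 98 bases and that in Cdh20 57 bases before the start site, both as CTGTCA on the strand shown. Cdh6 fell and Cdh20 rose, and the part of the match in either change was not tested. Of 32851 promoter windows of the same length in the table of RefSeq promoters, 15.9% hold TGACAG and 17.2% hold CACCTG. Sequences were matched for 13 members off chromosome 18, 8 of them among the 12 that passed there. TGACAG was found in 2 of those 8 and CACCTG in 1, Pcdh15. No entry was matched for Cdh1, Cdh11, Cdh16 or Cdh19. A match is a string of letters and was not measured as a binding site, and the absence of a match covers these windows only.

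Among the type I cadherins, N-cadherin rose and E-cadherin fell, while P-cadherin and R-cadherin did not pass. Cdh2 (ENSMUSG00000024304, GRCm38 chromosome 18, 16588877 to 16809246) was 218, 374 and 411 in control 1, 2 and 4, against 679, 904 and 995 in dKO 1, 2 and 3. Each dKO library lay above each control, and control 1 was the lowest of the 6. The group means were 334 ± 102 and 859 ± 163 (SD, n = 3), a 2.57-fold rise (log2 change 1.39, SE 0.24, limma adjusted p = 0.0026). Heart muscle cells express Cdh2, and the list of cardiomyocyte markers moved with it: 10 of 10 were higher in dKO libraries, and their summed level was 3921 in control 1, 8111 in control 2, 8835 in control 4 and 20815 to 24379 in the dKO libraries. Relative to the mean log2 value of that list, Cdh2 stood at 0.18, 0.03 and -0.09 in control pools, against -0.84, -0.25 and -0.07 in the dKO libraries, and these ranges overlapped, with dKO 3 above control 4. In whole tissue, a change in the number of cells of a type and one in RNA per cell cannot be told apart. The part of muscle cells in the result was not tested.

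E-cadherin was a low transcript throughout. Cdh1 (ENSMUSG00000000303, chromosome 8, 106603351 to 106670246) was 6.82, 3.03 and 3.78 in control pools, against 0.715, 0.555 and 0.122 in the dKO libraries, the last group resting on 11, 7 and 2 reads. The controls lay wholly above the dKO libraries, with control 1 the highest. This order of the groups was fixed in advance, since Cdh1 is in the table through the controls alone. Its mean in dKO libraries was 10.2% of the control mean (log2 change -1.88, SE 0.34, limma adjusted p = 0.0037). Epicardial markers moved with it: 12 of 12 were lower, with a summed level of 1980 to 2760 in controls and 334 to 404 in dKO libraries. The part of epicardial cells in the fall of Cdh1 was not tested.

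P-cadherin (Cdh3, chromosome 8, 106510891 to 106557297), a cadherin of basal epithelia and of mesothelium, ends 46.1 kb before Cdh1 begins and gave another picture. Cdh3 was 70.4, 72.5 and 71.2 in the controls, the tightest control spread of all members relative to the mean, and 46.3, 66.5 and 83.3 in the dKO libraries. The dKO values straddled the controls, with dKO 1 the lowest. The log2 change was -0.16 with a 95% interval of -0.59 to 0.26 (limma adjusted p = 0.58), and it turned to 0.06 without dKO 1. Epicardial markers fell and Cdh3 did not pass. Relative to the mean log2 value of those markers Cdh3 moved from -0.86 ± 0.17 to 1.73 ± 0.28 (SD, n = 3). R-cadherin (Cdh4), best known from retina and brain, was near the floor of the table at 1.62 ± 0.62 and 2.71 ± 0.76 (log2 change 0.51, limma adjusted p = 0.27).

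Of 8 type II cadherins, 5 fell, 1 rose and 2 did not pass (12.2% of all genes fell and 9.81% rose). Cdh11 (ENSMUSG00000031673, chromosome 8, 102632095 to 102785642), the cadherin of mesenchyme and fibroblasts, was by far the most abundant of those that fell. It was 781, 409 and 363 in control pools, against 97.4, 121 and 159 in the dKO libraries. The groups were far apart, and control 1 held about 2 times the level of either other control. Group means were 518 ± 229 and 126 ± 31.0 (SD, n = 3), a 4.12-fold difference (log2 change -1.98, SE 0.27, limma adjusted p = 0.00082). Fibroblast markers also moved: 6 of 7 were lower, and the summed level of the list was 27880 to 31407 in controls and 11813 to 15274 in dKO libraries. The other gene, Postn, went up from 1868 to 2502 without overlap of the groups. It did not pass in limma (log2 change 0.42, adjusted p = 0.12), but DESeq2 called it higher. Against the mean log2 value of that list Cdh11 stood at -1.53, -2.29 and -2.63 in control pools, against -3.51, -2.95 and -2.52 in the dKO libraries. These ranges overlapped, with dKO 3 above control 4, and the part of fibroblasts in the fall of Cdh11 was not tested.

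The remaining type II genes that fell are better known from neural tissue, kidney and neural crest. Cdh10, a synaptic cadherin of the brain, was 11.2, 6.73 and 10.6 in control pools, against 0.964, 0.851 and 0.0244 in dKO libraries, where dKO 3 held 0 reads (log2 change -2.73, SE 0.34, limma adjusted p = 0.00046). Cdh8, another neural cadherin, was 17.6, 6.41 and 5.81 in control pools, against 0.901, 1.59 and 0.658 in dKO libraries (log2 change -2.28, SE 0.40, limma adjusted p = 0.0030). In both genes the controls lay above all dKO libraries, which was fixed in advance for Cdh10. In Cdh8 control 1 was over 2 times as high as the other controls. Without control 1 the dKO mean of Cdh8 was 17.2% in place of 10.5% of the control mean (log2 change -1.82, limma adjusted p = 0.00363). Cdh6, a cadherin of the developing kidney and neural crest, was 23.4, 14.01 and 16.4 against 5.69, 7.73 and 6.85 (log2 change -1.27, SE 0.24, limma adjusted p = 0.0043). Cdh19, which marks Schwann cell precursors, was the nearest to absence: 27, 29 and 51 reads in control pools, against 0, 1 and 0 reads in the dKO libraries, or 1.70, 1.88 and 3.27 against 0.0311, 0.111 and 0.0244 (log2 change -1.61, limma adjusted p = 0.0056). Leaving out dKO 2, the library with 1 read, kept the call of Cdh19 (log2 change -1.65, limma adjusted p = 0.0201). With so few reads the size of its change depends on the pseudocount and is no fold. The direction was fixed in advance, since no dKO library of Cdh19 reached 1.

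Cdh20 (ENSMUSG00000050840, chromosome 1, 104768529 to 104995481), a type II cadherin known from neural tissue, was the member with the largest rise. Its values were 1.45, 3.16 and 2.89 in control pools, against 15.4, 8.99 and 8.84 in the dKO libraries, so that the lowest dKO library was well above the highest control. The mean rose 4.44-fold, from 2.50 ± 0.92 to 11.1 ± 3.77 (SD, n = 3; log2 change 1.78, SE 0.31, limma adjusted p = 0.0029). Cdh19 lies 5.89 Mb from Cdh20 on the same chromosome and changed in the opposite direction. Cdh6 and Cdh10 lie 5.65 Mb apart on chromosome 15, and both fell.

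VE-cadherin (Cdh5, ENSMUSG00000031871, chromosome 8, 104101625 to 104144511), the cadherin of endothelial junctions, did not pass. It was 224, 273 and 371 in control pools, against 277, 411 and 360 in dKO libraries, overlapping ranges with a log2 change of 0.28 and a 95% interval of -0.16 to 0.73 (limma adjusted p = 0.35). Of 9 other endothelial markers 1 was lower (Tek) and 0 higher, and their summed level was 872 to 1284 in controls and 980 to 1147 in dKO libraries. Of 6 markers of lymphatic endothelium, by contrast, 5 were lower and 0 higher, with a summed level of 544 to 800 in controls and 143 to 195 in dKO libraries. Ccl21a, among those 5, reached 1 in the controls alone and had to be lower. Prox1, the other gene of the list, went the other way (71.3 to 89.8) and did not pass (log2 change 0.35, limma adjusted p = 0.20). The part of either vessel type in the values of Cdh5 was not tested. Pcdh12, a protocadherin of endothelium, was 28.5, 32.6 and 44.9 against 44.5, 52.9 and 49.7. Control 4 alone overlapped the dKO range, and the log2 change of 0.48 (limma adjusted p = 0.077) reached 0.67 without control 4 (limma adjusted p = 0.021). T-cadherin (Cdh13), a glycolipid-anchored member of vessels without a cytoplasmic tail, was 56.4, 101 and 113 against 82.1, 122 and 106 (log2 change 0.24, limma adjusted p = 0.53). Among the other marker lists, 6 of 8 mural cell genes were higher and 0 lower (681 to 1059 summed in controls, 1986 to 2172 in dKO libraries), 2 of 3 mast cell genes were lower (217 to 285 and 52.4 to 61.8) and 1 of 4 macrophage genes was lower (132 to 194 and 64.03 to 99.2). In the mast cell list Cma1 (87.4 to 1.87) and Cpa3 (127 to 3.72) fell. Kit (39.0 to 51.7) was higher without overlap, did not pass (limma adjusted p = 0.085) and made up most of the dKO sum. Of 4 erythroid genes 0 passed in limma, edgeR or DESeq2, with 1 at an unadjusted p under 0.05. Of 8 neuronal genes listed only 2 were in the table, Elavl4 and Stmn2, both low (means over the 6 libraries of 1.37 and 2.36). Of these 2 neuronal genes 0 passed in limma, edgeR or DESeq2, with 0 at an unadjusted p under 0.05. The part of the cell types of these lists in the results was not tested. Cdh24, a type II member, was 2.62, 3.41 and 2.95 against 8.36, 3.14 and 5.68, with dKO 2 inside the control range (log2 change 0.68, limma adjusted p = 0.17).

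Cdh16, the kidney cadherin, has a longer outer part than the classical members and a short tail. It was 0.525, 0.479 and 1.37 in control pools, against 3.70, 2.40 and 2.66 in dKO libraries (log2 change 1.15, SE 0.32, limma adjusted p = 0.026). The groups did not overlap, but the rise missed the threshold with edgeR (adjusted p = 0.051) and on leaving out any of control 1, control 2, dKO 1, dKO 2 or dKO 3 (limma adjusted p = 0.056 to 0.080). Without control 4 the dKO mean was 582% in place of 370% of the control mean (limma adjusted p = 0.0216).

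**Figure D2:**
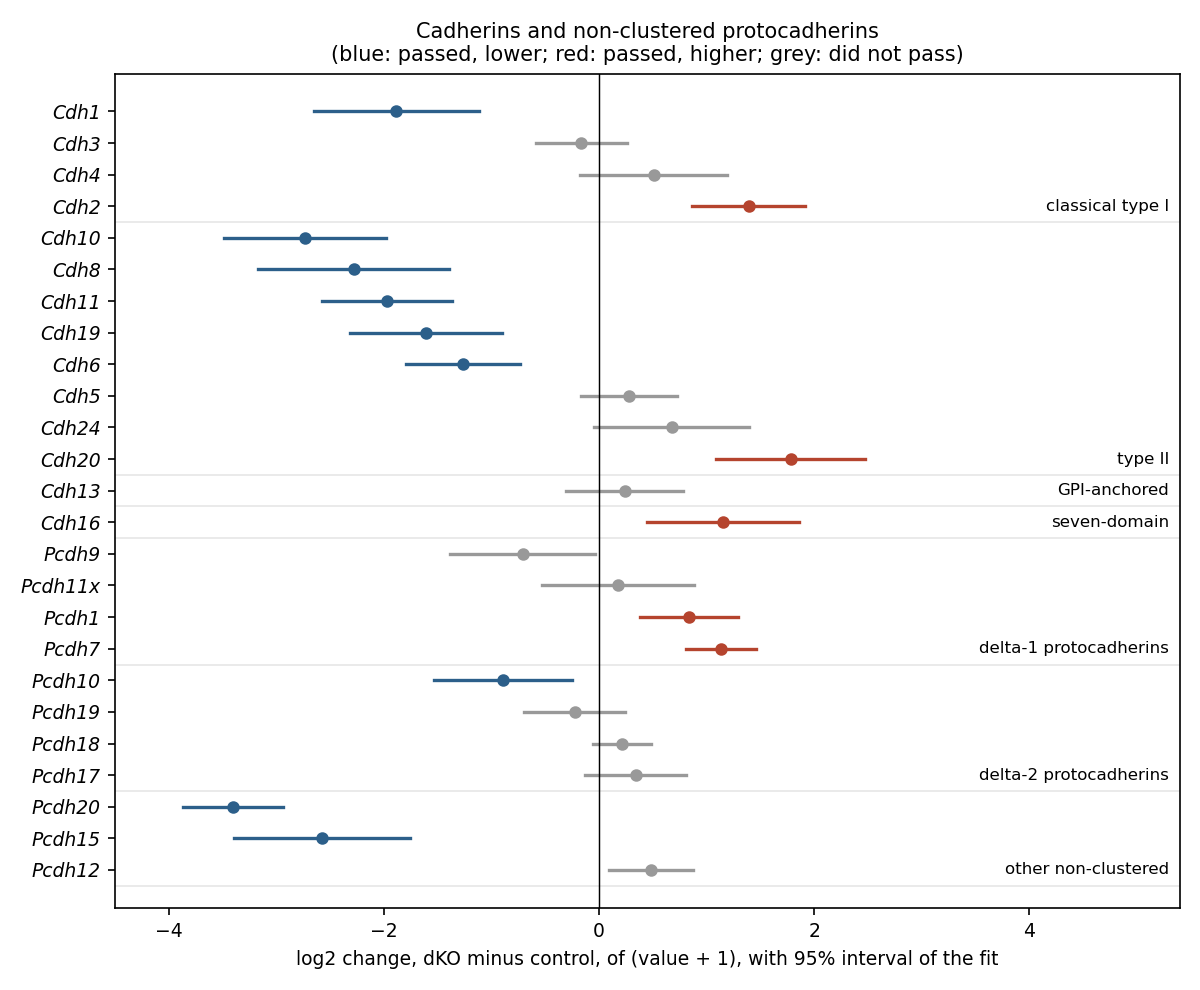
Log2 change (dKO minus control, of value + 1) with its 95% interval from limma for the 14 cadherins and 11 single-locus protocadherins, grouped by class. Falls past the threshold are blue, rises red and the 11 genes that did not pass grey; Pcdh20 is farthest to the left at -3.40 and Cdh20 farthest to the right at 1.78.

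Compared per length, the cadherin mRNA of the tissue was made up mainly of 3 genes, and their order differed between the groups. In normalised reads per 1000 exonic bases, control means were 68.9 for Cdh5, 58.1 for Cdh11 and 41.5 for Cdh2, and dKO means were 107 for Cdh2, 83.1 for Cdh5 and 14.1 for Cdh11. Cdh11 was 44.2%, 24.3% and 19.1% of the summed level per length of the 14 Cdh genes in control pools, against 5.84%, 5.33% and 6.83% in the dKO libraries. The share of Cdh2 was 13.6%, 24.5% and 23.8% in control pools, against 44.9%, 44.0% and 47.2% in dKO libraries. Cdh3 stayed between 5.63% and 8.75% in all 6 libraries. Within the controls the order of Cdh5 and Cdh11 was not stable, since Cdh11 was ahead in control 1 and behind in controls 2 and 4. Summed levels were 189 to 214 in controls and 187 to 261 in dKO libraries. These ranges overlapped.

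**Figure D3:**
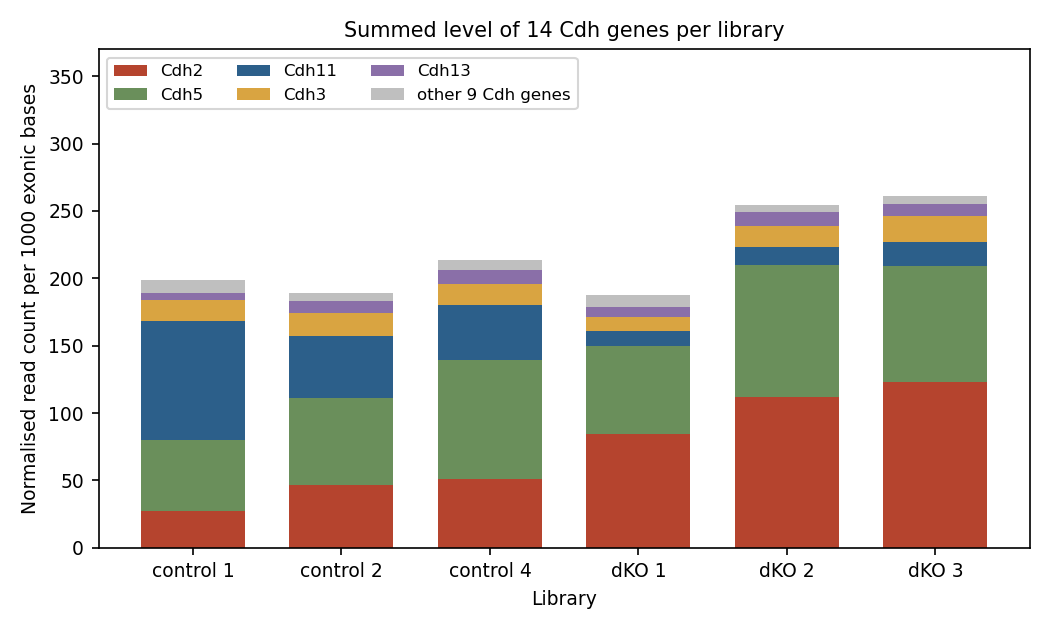
Summed level of the 14 Cdh genes in each library, in normalised read counts per 1000 exonic bases, with bars stacked by gene. Cdh11 is the tallest segment of control 1 (44.2%) and a thin one in each dKO library (5.33% to 6.83%), where Cdh2 makes up 44.0% to 47.2%.

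Among the single-locus protocadherins 3 fell, 2 rose and 6 did not pass (12.2% of all genes fell and 9.81% rose). Pcdh20 (ENSMUSG00000050505, chromosome 14, 88464743 to 88471396), a protocadherin best known from brain, had the smallest p of all 61 genes. Its values were 33.1, 39.8 and 43.1 in control pools, against 3.01, 2.18 and 3.04 in the dKO libraries. Both groups were tight and more than 10 times apart. Means were 38.6 ± 5.10 and 2.75 ± 0.49 (SD, n = 3), with 7.11% of the control mean left (log2 change -3.40, SE 0.21, limma adjusted p = 6.9e-06). Per length it was the 7th of the 25 members outside the clusters in controls and the 17th in dKO libraries. Pcdh15, which forms the tip link of inner ear hair cells together with Cdh23, was 11.0, 6.35 and 6.89 in control pools, against 0.0311, 0.333 and 1.39 in dKO libraries, on 0, 4 and 28 reads (log2 change -2.57, SE 0.37, limma adjusted p = 0.00099). Without dKO 3, which held most of those reads, the dKO mean of Pcdh15 was 2.26% in place of 7.24% of the control mean (limma adjusted p = 0.000928). Pcdh10, a delta-2 protocadherin of the nervous system, was 4.601, 3.10 and 2.83 against 1.59, 1.07 and 1.53 (log2 change -0.90, limma adjusted p = 0.0496). The groups of Pcdh10 did not overlap, but the call rests on its margin: it missed the threshold with edgeR (adjusted p = 0.075) and without any 1 of the 6 libraries (limma adjusted p = 0.064 to 0.16).

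Pcdh7 and Pcdh1, both delta-1 protocadherins, rose. Pcdh7 (ENSMUSG00000029108, chromosome 5, 57717967 to 58133230), first described in brain and heart, was 68.5, 71.7 and 79.2 in control pools, against 133, 165 and 190 in the dKO libraries. The controls lay close together, and every dKO library was above them. The mean rose 2.22-fold, from 73.1 ± 5.51 to 163 ± 28.7 (SD, n = 3; log2 change 1.13, SE 0.15, limma adjusted p = 0.00059). Relative to the mean log2 value of the cardiomyocyte markers, of which 10 of 10 were higher, Pcdh7 stood at -2.09 ± 0.53 in controls and -2.78 ± 0.37 in dKO libraries (SD, n = 3), and the part of muscle cells in its rise was not tested. An uncharacterised gene, 4932441J04Rik, covers 21.1% of its exonic bases, and since the library kit is not stated to keep strand, reads there can belong to either. Pcdh1, an epithelial protocadherin, was 17.5, 29.8 and 20.03 against 45.1, 40.2 and 34.9 (log2 change 0.84, SE 0.20, limma adjusted p = 0.016). Leaving out control 4, dKO 1 or dKO 2 lost the call (limma adjusted p = 0.0525 to 0.0530).

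The other delta protocadherins did not pass. Pcdh9 was 16.6, 9.03 and 15.6 in control pools, against 5.32, 11.2 and 7.67 in dKO libraries, with overlapping groups (log2 change -0.71, limma adjusted p = 0.13). Pcdh18, the most abundant of the delta-2 genes, was 84.2, 95.2 and 97.2 against 117, 99.98 and 105, groups that did not overlap by a small margin (log2 change 0.22, limma adjusted p = 0.24). Pcdh17 was 20.9, 25.1 and 35.7 against 29.5, 41.1 and 32.2 (log2 change 0.34, limma adjusted p = 0.28). The X-linked genes Pcdh19, mutated in a form of epilepsy, and Pcdh11x were 22.6 ± 4.08 and 19.3 ± 4.45, and 3.46 ± 1.75 and 3.83 ± 0.60 (SD, n = 3), with log2 changes of -0.23 and 0.18 (limma adjusted p = 0.49 and 0.74).

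Clustered protocadherins give neurons their surface identity: each variable exon has its own promoter, and in the gamma cluster the variable exon is spliced to shared constant exons. The 22 gamma genes therefore share 27.8% to 66.8% of their exonic bases with other members, and their values depend on how RSEM divided the reads of the shared part. Overlap with any annotated gene, on either strand, was higher for some: 100% for Pcdhga10, 73.6% for Pcdhga11 and 66.9% for Pcdhgc3. The 36 clustered genes all lie on chromosome 18, as do Cdh2, Pcdh1 and Pcdh12. Of the 36 clustered genes 1 passed in limma (3 at an unadjusted p under 0.05), and edgeR and DESeq2 called 1 each. Pcdhga12 (chromosome 18, 37765580 to 37841873) was 3.49, 3.41 and 3.90 in control pools, against 6.93, 8.32 and 10.3 in dKO libraries, a 2.36-fold rise (log2 change 1.03, SE 0.24, limma adjusted p = 0.013). The control values were close and the dKO values lay above them, but without dKO 3 the call was lost (limma adjusted p = 0.069). The number of gamma genes called higher was 3 without control 4 (with Pcdhga2 and Pcdhgb2) and 3 without dKO 1 (with Pcdhga10 and Pcdhgb4).

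The beta genes, which have no constant part, had means over the 6 libraries of 1.13 to 7.89. Among these 14 genes 0 passed in limma, with 0 at an unadjusted p under 0.05, and 0 passed in edgeR and DESeq2; log2 changes ran from -0.40 to 0.34. The most abundant were Pcdhb17 (6.91 ± 1.78 and 8.86 ± 0.72), Pcdhb22 (8.31 ± 2.42 and 7.34 ± 1.72) and Pcdhb20 (4.49 ± 1.80 and 3.65 ± 1.197; SD, n = 3). The cluster sum was 55.7, 45.6 and 28.6 in control pools, against 37.7, 39.7 and 46.9 in dKO libraries. Control 1 was the highest control for 10 of the 14 genes and control 4 the lowest for 11, and the SD of the control sums (13.7) exceeded the difference between the group means (43.3 and 41.4).

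Most of the gamma signal came from the C-type genes Pcdhgc3 and Pcdhgc4 in every library but dKO 3, where the C-type genes held 48.1%. Pcdhgc4 was 74.5, 106 and 97.7 in control pools, against 150, 95.8 and 76.1 in dKO libraries, and Pcdhgc3 was 96.6, 70.7 and 93.7 against 53.4, 74.8 and 83.4. Neither passed (log2 changes 0.17 and -0.31, limma adjusted p = 0.65 and 0.27), and the ranges of both overlapped. Pcdhgb6, the next in abundance, was 17.4, 6.10 and 16.9 against 3.26, 12.5 and 16.54. The sum of the 22 gamma genes was 291, 257 and 315 in control pools, against 277, 314 and 333 in dKO libraries. The 19 A- and B-type genes made up 40.8%, 31.2% and 38.9% of it in control pools, against 26.5%, 45.02% and 51.9% in dKO libraries. In dKO 1, 19 of 22 gamma genes had the lowest of the 3 dKO values and Pcdhgc4 the highest, and the SD of the gamma sum (29.4 in controls and 28.7 in dKO libraries) was larger than the difference between the group means (288 and 308).

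**Figure D4:**
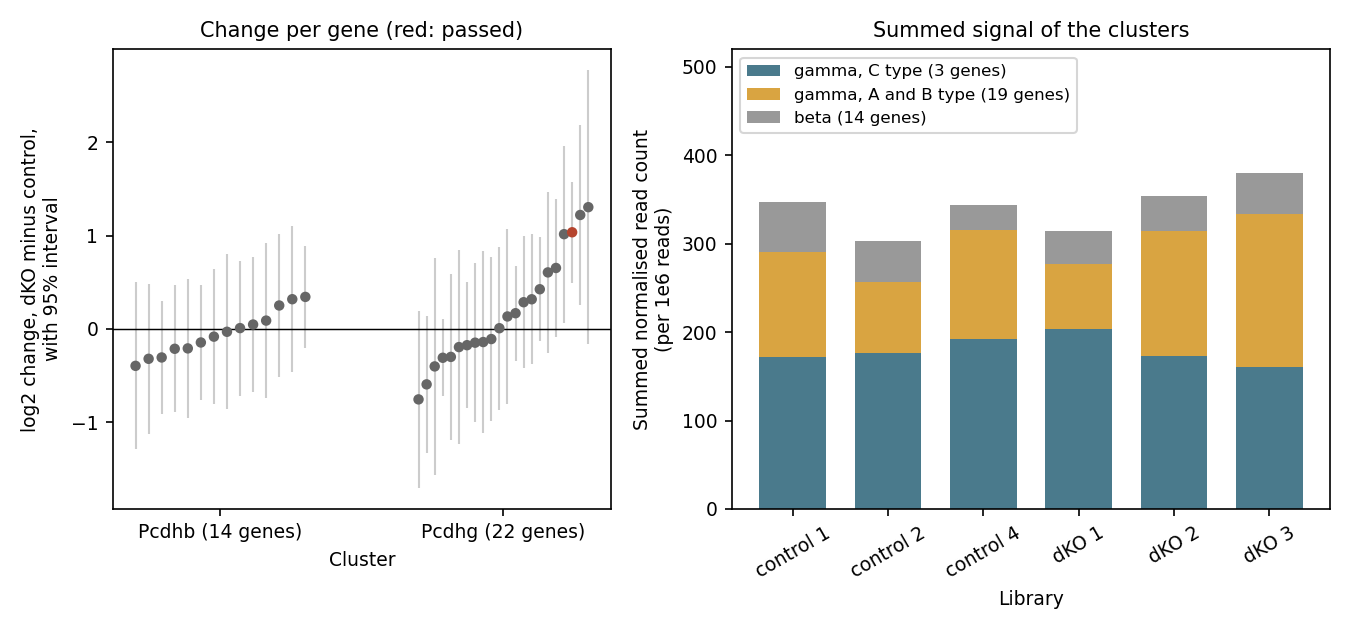
Left, log2 change (dKO minus control) with 95% interval for each beta and gamma protocadherin, with Pcdhga12, the gene past the threshold, in red. Right, summed normalised read count per library, stacked into C-type gamma, A- and B-type gamma and beta genes; the gamma sum is 257 to 315 in controls and 277 to 333 in dKO libraries, and the A- and B-type part is smallest in dKO 1.

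Partners of the cadherins were looked at through lists chosen by function. Of 11 catenins and linkers 5 were higher and 0 lower (9.81% and 12.2% of all genes; median log2 change 0.38, against 0.00): the alpha-catenins Ctnna2 of neurons (2.03 ± 0.50 to 16.4 ± 2.02, log2 change 2.53, limma adjusted p = 8.9e-05) and Ctnna3 of heart muscle (12.2 ± 2.98 to 32.5 ± 3.49, log2 change 1.37), and the delta-catenin relatives Pkp4 (0.82), Arvcf (0.996) and Ctnnd1 (0.38). Ctnnd1 passed by a small margin (limma adjusted p = 0.0489) and not in edgeR (adjusted p = 0.0684), and its call was lost without control 1, control 2, control 4, dKO 2 or dKO 3 (limma adjusted p = 0.0632 to 0.183). That of Arvcf was lost without control 2 or dKO 2 (0.0515 and 0.0575). The core catenins Ctnnb1 (852 and 1018) and Ctnna1 (431 and 546) did not pass. Desmosomal cadherins, which couple heart muscle cells, rose: Dsc2 from 16.51 to 41.0 (log2 change 1.26) and Dsg2 from 32.2 to 68.1 (1.06). They were the called genes among 6 of a list that also held calsyntenins (Clstn) and Cdhr4 (33.3%, against 22.0% of all genes). The other 4 genes did not pass and had negative log2 changes: Clstn1 (-0.33), Clstn2 (-0.65), Clstn3 (-0.29) and Cdhr4 (-0.89). The call of Dsg2 was lost without dKO 2 or dKO 3 (limma adjusted p = 0.0659 and 0.0795). As with Cdh2, cardiomyocyte markers were higher too (10 of 10). The part of muscle cells in the rises of Dsc2, Dsg2 and Ctnna3 was not tested.

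Giant and planar polarity cadherins, which set the orientation of cells in a sheet, moved both ways. Fat3 (12.8 to 29.7, log2 change 1.14), Celsr2 (2.73 to 7.03, 1.10) and Celsr1 (12.9 to 21.5, 0.69) rose, while Dchs2 (9.42 ± 7.10 to 1.32 ± 0.40, -1.98) and the kinase-like modulator Fjx1 (20.9 to 3.75, -2.10) fell, 5 of 10 in all (22.0% of all genes passed). Dchs2 was 17.6 in control 1, 6.16 in control 2 and 4.54 in control 4, and without control 1 its control mean was 5.35 (log2 change -1.46, limma adjusted p = 0.0114). The call of Celsr1 was lost without any 1 library other than dKO 2 (limma adjusted p = 0.0512 to 0.139) and that of Celsr2 without control 2 or dKO 1 (0.0536 and 0.0514). Of 7 nectin and Cadm genes, which start contacts that cadherins then fill, 3 fell and 0 rose: Cadm1 (51.5 to 20.6, -1.27), Nectin2 (80.1 to 47.3, -0.76) and Cadm3 (6.42 to 2.40, -1.05), whose call was lost without any 1 library other than control 2 (limma adjusted p = 0.0937 to 0.151). Among 10 genes of cadherin cleavage, the proprotein convertases Pcsk5 (94.7 ± 2.83 to 9.76 ± 1.43, log2 change -3.16, limma adjusted p = 2.1e-06) and Pcsk6 (27.0 to 14.3, -0.87) fell, 2 of 10 genes. That share is close to the 22.0% of all genes that passed, while for nectins and Cadm genes it was 42.9%. Furin, the convertase best known to mature classical cadherins, was 28.7 and 40.0 (0.46, limma adjusted p = 0.061).

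Of 8 transcription factors known to repress or regulate Cdh1, Twist2 (5.93 to 0.356, log2 change -2.33) and Snai2 (35.7 to 19.5, -0.84) fell and Tcf4 (129 to 192, 0.56) rose (12.2% of all genes fell and 9.81% rose). Twist2 reached 1 in no dKO library, so it is in the table through the controls alone and had to be lower. Tcf4 did not pass on leaving out control 4, dKO 1 or dKO 2 (limma adjusted p = 0.0648 to 0.0761). Zeb1 was 156 ± 2.38 and 159 ± 0.80 (SD, n = 3; log2 change 0.03, limma adjusted p = 0.88), and Zeb2, Snai1, Twist1 and Tcf3 did not pass. Twist2, Snai2 and Cdh1 were all lower, which was fixed in advance for Twist2 and Cdh1. Among 17 genes for the chromatin control of the clusters, such as Ctcf (104 and 98.1) and the cohesin subunit Rad21 (311 and 397), 0 passed in limma (22.0% of all genes passed). Of the 17, 4 had an unadjusted p under 0.05, edgeR called 0 and DESeq2 1 in each direction. The groups did not overlap for 7 of the 17, Rad21 among them (3 lower and 4 higher, against 21.1% and 19.3% of all genes).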

How the data were processed

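The authors deposited 1 normalised signal per gene (14549 genes, 6 libraries), made with cutadapt and RSEM 1.3.1 on GRCm38, per the submitters' processing notes; those notes give no annotation release, scaling or gene filter. All 87294 values were a whole number of reads plus 0.5 per 1e6 of a scaled library size, within 0.01 reads, and the scaling equalled recomputed TMM factors. Gene positions, exonic lengths and overlaps come from GENCODE M21 (GRCm38). The test was limma 3.58.1 in R 4.3.3, two-sided, with a variance trend, on log2(value + 1), of dKO against control for genes reaching 1 in 3 libraries or more (all 14549), with Benjamini-Hochberg adjustment. Scripts were tested on simulated data. Alternatives used edgeR 4.0.16 and DESeq2 1.42.0 on the recovered reads, other pseudocounts, filters and scalings, and libraries left out. Named genes were all cadherins and single-locus protocadherins, of each cluster the genes past the threshold and the 3 most abundant, and of each partner list those past the threshold; other genes named were chosen after their values were seen. Results of 1 marker list are not reported here. Members, gene lists and rules were chosen with earlier results of these data known.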

Additional observations from a re-analysis of the deposited data

How the results depend on the processing

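Of the 15 members past the threshold, 9 (Cdh1, Cdh2, Cdh8, Cdh10, Cdh11, Cdh20, Pcdh7, Pcdh15 and Pcdh20) kept their call and direction under each alternative that gave a value. Cdh1 and Cdh10 are in the table through the controls alone, so their direction was fixed in advance and its being kept is no support. Over the settings that each left out 1 library, 8 members were lower in each and 4 to 8 higher, with 8 and 6 without control 1 and dKO 1 together; a filter at a mean of 5 left 35 members and 5 lower. For all genes those leave-one-out counts were 1269 to 1545 lower and 898 to 1262 higher; for the adhesion partners, 8 to 10 lower and 7 to 11 higher. Titles share the numbers 1 and 2 between groups without a stated pairing, and same-numbered libraries did not deviate together (correlations -0.18 and -0.20 over 14549 genes). With the number as a replicate block, which leaves 1 residual degree of freedom, 780 genes were lower and 580 higher, 6 and 4 members, and 5 and 7 partners; the calls of Cdh6, Cdh19, Cdh16, Pcdh1, Pcdh10 and Pcdhga12 were lost, and Pcdhga2 was called. Signs were compared for 32 members: all those outside the clusters, and of each cluster the genes past the threshold and the 3 most abundant. The other clustered genes were not compared in this way. Among the 32, signs turned only in members that had not passed: with the block in Pcdh11x (-0.0033) and Pcdh19 (0.0020), without control 1 and dKO 1 together in Cdh3 (0.051), Pcdhb20 (0.15), Pcdhgc4 (-0.25) and Pcdhgb6 (0.45), and on leaving out 1 library, as ranges, in Cdh13 (-0.065 to 0.43), Pcdh11x (-0.014 to 0.48), Cdh3 (-0.36 to 0.061), Pcdhb22 (-0.36 to 0.036), Pcdhgc4 (-0.10 to 0.38) and Pcdhgb6 (-0.85 to 0.22). The cause of these shifts was not tested. Depth limits the low genes: 3 reads stood for 0.146 to 0.222, and Cdh1, Cdh10, Cdh19 and Pcdh15 had a dKO library at or under that.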
